A study of Mus musculus with 10 samples.

Results

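Serum-starved mouse embryonic fibroblasts (MEFs) were compared with the same cells after 90 min of serum. The comparison rests on 4 of the 10 arrays of the series, chosen by their sample labels: WT at 0 min, WT at 90 min, Med23KO at 0 min and Med23KO at 90 min. WT cells carry wild-type Med23, and Med23KO cells lack it. MED23 is a subunit of Mediator, through which DNA-bound regulators reach the transcribing polymerase. Both lines came from embryos of day 9.5 and had become immortal in culture without an added gene, per the labels' protocols. The labels call the 0 min cells free of serum and give no length of starvation. Each condition had 1 array of total RNA, so the comparison is of 2 pairs, each within a genotype, and the 2 MEF arrays at 30 min served only to estimate the spread and to place the 90 min levels in time. WT and Med23KO are 1 line each, and nothing in the labels says that the arrays of a pair came from separate cultures, so the p-values measure only the spread between these arrays.

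Serum ends starvation by presenting growth factors and the lipid lysophosphatidic acid to resting fibroblasts. MAP kinases then phosphorylate the ternary complex factors (Elk1, Elk3, Elk4), and polymerising actin releases the myocardin-related factors (Mrtfa, also called MAL, and Mrtfb). Both kinds of cofactor bind the serum response factor SRF, which sits on a short DNA element named the CArG box. Immediate-early genes need no new protein and are known to peak within the first hour. The delayed wave that follows holds their targets and the proteins that shut the response down, while genes kept on by FoxO factors in starved cells are turned off through PI3 kinase and Akt.

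All levels below are log2 expression values, in which 1 unit is a doubling. A change is the 90 min level minus the 0 min level, averaged over both genotypes, with its standard error (SE) from a limma fit of genotype and serum time on the 6 MEF arrays. A gene is said to have risen or fallen where its limma p-value, adjusted by the Benjamini-Hochberg method over 11933 genes, was below 0.05. Medians of the 6 MEF arrays lay between 3.86 and 3.93. Where a level lay below the median of its array, it was raised to that median for the fold, which is then given as "at least". Med23 stood at 6.90 to 7.39 on the WT arrays and at 2.91 to 3.30, below the array medians, on the Med23KO arrays. Of 12 fibroblast markers, 10 lay above the median on each MEF array, as did 6 to 8 of 10 smooth muscle markers. This was so for 2 or 3 of 9 endothelial, 3 or 4 of 10 macrophage and 5 or 6 of 8 neural markers. Pecam1 and Cdh5 (endothelial) and Ptprc and Adgre1 (leukocyte) were among those below it on each. Flt1 (endothelial, 4.65 to 10.3), Cd14 (macrophage, 6.13 to 9.28) and Csf1r (macrophage, 4.26 to 4.6) were above it on each. So were the neural markers Map2 (6.97 to 8.47), Ncam1 (6.9 to 8.35), Nes (5.97 to 7.97) and Sox10 (4.22 to 4.71). Sox2 (neural, 7.61 to 9.11) was above it in WT only, and Emcn (endothelial, 4.95 to 5.38) in Med23KO only. The lines differed in fibroblast markers: Dcn stood at 13.6 to 13.71 in WT and at 4.26 to 4.73 in Med23KO. Col1a2 stood at 9.13 to 9.76 in WT and at 13.31 to 13.4 in Med23KO. The part of such markers in the results was not tested. The control probe set for the 3′ end of 18S ribosomal RNA read 13.20 in WT at 90 min and 11.35 to 12.51 on the other 5 arrays. Its part in the results was not tested. In RNA of a whole culture, fewer responding cells and less RNA per cell cannot be told apart.

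At 90 min, 544 genes had risen and 1068 had fallen, 13.5% of the 11933 tested (4.56% higher and 8.95% lower). Counts in the groups of genes below are to be read against these shares. Some genes belong to more than 1 group, so the group counts overlap. Every one of the 1612 called genes changed with 1 sign in both genotypes. The fit favors such genes, since a change that differs between the genotypes widens its residual. The shared sign is therefore no separate evidence of agreement. The median change over all genes was -0.11, and the changes below are best read against it. Of the risen genes 335 changed by at least 2-fold on average, up to a change of 5.85, and of the fallen genes 486 did, down to -4.74. A change of at least 2-fold in each genotype was seen upward for 240 genes (2.01%) and downward for 292 (2.45%). Most risen genes were higher at 90 than at 30 min: 467 of the 544 stood above their 30 min level in both genotypes, and 27 stood below it in both. Of the 1068 fallen genes, 1059 stood below their 30 min level in both genotypes and 0 above it in both. Genes were called on their 90 min levels, which favors this order in both directions. The counts against 30 min are therefore no separate evidence of timing.

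**Figure D1:**
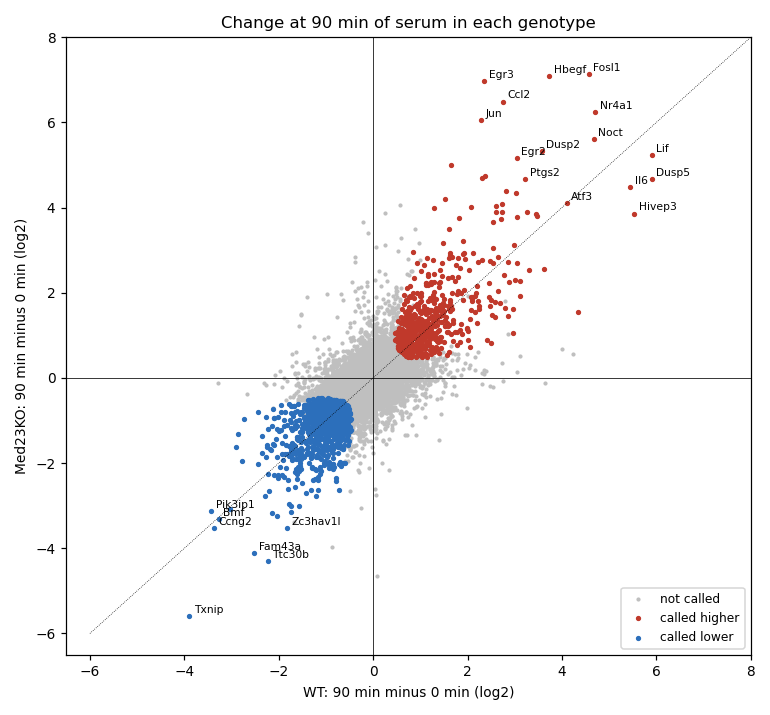
Change at 90 min (90 min minus 0 min, log2) in WT on the horizontal axis and in Med23KO on the vertical axis, 1 point for each of 11933 genes. Red points are the 544 genes that rose and blue points the 1068 that fell by limma at an adjusted p below 0.05, gray points were not called, and the dotted line marks equal change. The colored points lie in the lower left and upper right, with Fosl1, Nr4a1, Hbegf and Lif far up and Txnip far down. The fit favors genes with like changes in both genotypes.

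These counts depend on few arrays. With only the 0 and 90 min arrays in the fit, 1 residual degree of freedom remained and 11 genes passed, 7 up and 4 down: Atf3, Il6, Lif, Noct, Plaur, Slc20a1 and Srf rose, and Bmf, Ccng2, Pik3ip1 and the clone gene 9930012K11Rik fell, as they did in the fit of 6 arrays. Without the Med23KO 0 min array, limma called 0 genes, with 1941 at an unadjusted p below 0.05. For the groups of genes below, the range of calls when any 1 of the 6 arrays was left out is given in parentheses, and its lowest value is 0 for that reason.

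Immediate-early transcription factors were the group with the largest share of risen members. Of 28 members, 23 rose, against 4.56% of all genes tested, and 1 fell, with a median change of 2.47 (0 to 17 rose with 1 array left out). Fosl1 encodes Fra-1, an AP-1 partner of Jun that appears late among the Fos proteins. Its level went from 5.33 to 9.90 in WT and from 3.62 to 10.75 in Med23KO. Both 90 min arrays lay far above both 0 min arrays, and the change of 5.85 (SE 0.54) is a rise of at least 52.2-fold (limma adjusted p = 0.00522, and 0.0315 to 0.0734 with 1 array left out). The stress-induced factor Atf3 rose almost equally in both lines, from 4.86 to 8.96 in WT and from 4.08 to 8.19 in Med23KO. Its change of 4.11 had the smallest error among the 15 largest rises (SE 0.15, limma adjusted p = 0.00133).

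The AP-1 genes differed in how far they had come back from their 30 min levels. Fos, the classical immediate-early gene, stood at 5.99, 12.24 and 7.16 at 0, 30 and 90 min in WT and at 6.63, 13.03 and 9.02 in Med23KO. The 90 min levels were well under those at 30 min yet above both 0 min levels, a rise of 3.43-fold (limma adjusted p = 0.0189). Fosb likewise had dropped back to 5.68 and 7.08 from 9.99 and 9.58 at 30 min, and had risen at least 5.50-fold over 0 min. Fosl1 and Maff were instead higher at 90 than at 30 min in both lines. Junb, which restrains Jun at shared sites, rose 6.73-fold, with changes of 2.65 in WT and 2.85 in Med23KO. Jun itself went from 7.69 to 9.97 in WT and from 4.62 to 10.68 in Med23KO. The levels at 90 min were alike and those at 0 min were not, so its change was 2.28 in WT and 6.06 in Med23KO. Fosl2 and Jund rose 4.55-fold and 2.52-fold.

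**Figure D2:**
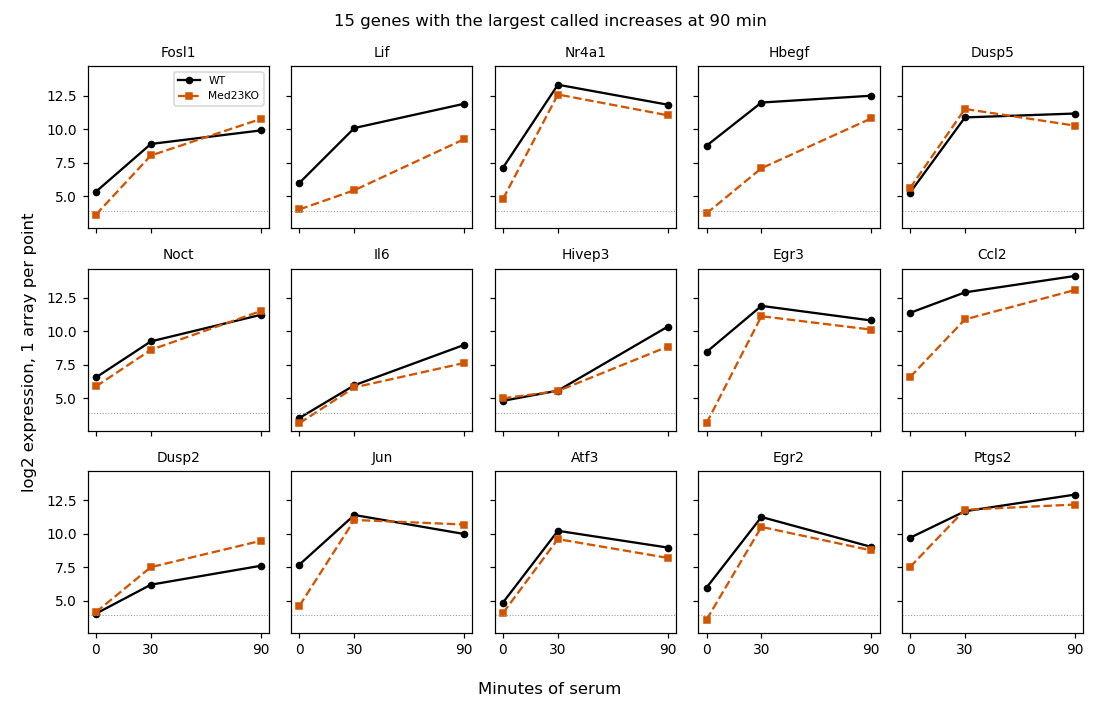
Level at 0, 30 and 90 min of serum (log2 expression, 1 array per point) of the 15 genes with the largest called rises, WT as black circles and Med23KO as orange squares; the dotted line is the median of all probe sets on the MEF arrays. Nr4a1, Atf3, Egr2, Egr3 and Jun are lower at 90 than at 30 min in both lines, while Lif, Il6, Hivep3, Noct and Dusp2 are highest at 90 min.

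The zinc finger factors of the Egr family and the orphan receptors of the Nr4a family also answered unequally. Nr4a1, the receptor Nur77, stood at 7.12, 13.31 and 11.82 at 0, 30 and 90 min in WT and at 4.79, 12.58 and 11.03 in Med23KO. It had begun to decline in both lines but remained 44.3-fold above 0 min (change 5.47, SE 0.39, limma adjusted p = 0.00470). Nr4a2 rose 2.41-fold, although the lines overlapped, since Med23KO at 0 min (6.47) was above WT at 90 min (6.39). Nr4a3 was not called, with a change of 0.39. Egr2 rose at least 15.3-fold (limma adjusted p = 0.00759) and Egr3 at least 19.5-fold (limma adjusted p = 0.0404, up to 0.214 with 1 array left out). The 2 probe sets of Egr3 gave changes of 0.56 and 4.67. Egr1, the family's best-known member, stood at 9.81, 13.45 and 11.83 in WT and at 6.43, 12.55 and 8.35 in Med23KO, and its change of 1.97 was not called (limma adjusted p = 0.0841). Its WT level at 0 min was above the Med23KO level at 90 min. Egr4 was at 8.29 in Med23KO and 5.18 in WT at 90 min and was not called either.

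Krueppel-like factors, zinc finger proteins of GC-rich promoters, also rose in part. Of 13 members, 5 rose and 1 fell, with a median change of 1.01 (0 to 7 rose with 1 array left out). These are 38.5% and 7.69%, against 4.56% and 8.95% of all genes. Klf2, Klf4, Klf6 and Klf10 are also counted among the immediate-early factors. Klf4, an inhibitor of proliferation, climbed from 7.45 through 8.59 to 10.19 in WT and from 5.28 through 7.19 to 9.37 in Med23KO. The 90 min arrays were the highest of each line, and the rise was 10.7-fold (limma adjusted p = 0.00502). Klf10, a TGF-beta-inducible gene, rose 12.1-fold, and Klf5 and Klf16 rose 4.98-fold and 4.92-fold. Klf2, in contrast, stood at 7.45 and 8.23 at 30 min, above its 0 min levels, and by 90 min fell by 1.03 on the log2 scale against 0 min (limma adjusted p = 0.0374). Hivep3, a zinc finger protein that binds NF-kB-like sites, went from 4.82 to 10.35 in WT and from 5.00 to 8.86 in Med23KO, nearly all of it after 30 min. The representative probe set rose 25.9-fold (limma adjusted p = 0.00501), while its 5 probe sets gave changes from 0.15 to 4.70. Myc rose 3.86-fold, and the short-lived immediate-early proteins Ier2 and Ier3 rose 4.81-fold and 4.04-fold.

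Srf itself rose. Its level went from 6.59 to 9.57 in WT and from 7.25 to 10.38 in Med23KO, with 9.58 and 9.94 at 30 min. Both lines rose by nearly the same amount, 2.98 and 3.13, an average of 8.31-fold (SE 0.17, limma adjusted p = 0.00196, and 0.0315 to 0.0536 with 1 array left out). None of its cofactors passed the test. The changes were 0.48 for Elk1, 0.40 for Elk4 and -0.17 for Elk3 among the ternary complex factors, and -0.43 for Mrtfa and -0.54 for Mrtfb (limma adjusted p = 0.0645 for Mrtfb). Thus 1 of the 6 genes of this group that passed the filter on low values rose (16.7%, against 4.56% of all genes).

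Of 29 targets of the actin, MAL and SRF route tested, 13 rose (44.8%, against 4.56% of all genes), 16 were not called and 0 fell. The median change was 0.88 (0 to 9 rose with 1 array left out). Vcl encodes vinculin, which ties actin to cell adhesions. It went from 10.05 to 12.14 in WT and from 11.00 to 12.90 in Med23KO, and stood at 10.00 and 11.37 at 30 min. Most of this 3.99-fold rise thus came after 30 min (limma adjusted p = 0.00571). The fibronectin receptor subunit Itga5 rose 5.39-fold, and the actin-binding adaptors Pdlim7 and Pdlim5 rose 3.05-fold and 2.74-fold. Ccn1, a secreted matrix protein also named Cyr61, peaked at 13.82 and 13.81 at 30 min and was still 4.04-fold up at 90 min. Its relative Ccn2 was not called: it was 0.38 lower at 90 than at 0 min in WT and 2.72 higher in Med23KO. The actin genes themselves showed small changes that were not called, 0.28 for Actb, 0.47 for Actg1 and 0.34 for the smooth muscle gene Acta2. Tagln, the smooth muscle protein SM22, rose 1.88-fold, on levels of 4.82 and 5.86 in WT and of 11.03 and 11.81 in Med23KO. It was 1 of 2 smooth muscle markers that rose among the 8 tested (25.0%, against 4.56% of all genes), with Smtn (2.21-fold).

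Promoter sequences are shown for 3 SRF-linked genes that rose in both lines, Srf, Dusp5 and Vcl, with each CArG box in capitals (RefSeq, build GRCm38.p6, 5′ to 3′ on the gene's strand, 160 bases each). The Srf window is chr17:46556163-46556322 on the minus strand and ends 1 base before the start of transcription. The Dusp5 window is chr19:53528985-53529144 on the plus strand and ends at the same place, and the Vcl window is chr14:20929148-20929307 on the plus strand, from -250 to -91.
Srf: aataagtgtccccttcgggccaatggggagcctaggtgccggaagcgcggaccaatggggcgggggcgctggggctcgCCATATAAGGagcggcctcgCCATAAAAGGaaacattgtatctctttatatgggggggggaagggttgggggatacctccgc
Dusp5: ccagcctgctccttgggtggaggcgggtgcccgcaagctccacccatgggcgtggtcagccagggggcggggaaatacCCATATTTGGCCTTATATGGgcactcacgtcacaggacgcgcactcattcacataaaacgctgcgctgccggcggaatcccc
Vcl: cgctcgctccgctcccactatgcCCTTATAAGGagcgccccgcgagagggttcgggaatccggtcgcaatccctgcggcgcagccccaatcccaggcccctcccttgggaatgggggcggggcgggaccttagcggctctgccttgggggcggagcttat
Srf and Dusp5 each hold 2 CArG boxes, with first bases at -82 and -62 and at -82 and -72, which in Dusp5 directly adjoin. Vcl holds 1, at -227, which overlaps a match to the NF-kB motif on the other strand by 2 bases. A CArG box on either strand was sought in the 250 bases before the start. It was found in 1.40% of all 27025 promoters and in 1.22% of the 9600 tested genes with a promoter. Of the 428 that rose 3.04% held it, and of the 875 that fell 0.571%. A match describes the letters of this window and not a bound site.

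Of 15 feedback inhibitors of MAP kinases tested, 7 rose (46.7%, against 4.56% of all genes), 8 were not called and 0 fell. The median change was 1.53, with 0.26 in WT and 1.47 in Med23KO (0 to 7 rose with 1 array left out). Dusp5, a nuclear phosphatase of ERK, went from 5.26 to 11.16 in WT and from 5.60 to 10.26 in Med23KO. At 30 min it stood at 10.87 in WT and at 11.50 in Med23KO, the latter above the 90 min level, and the rise from 0 to 90 min was 38.9-fold (SE 0.36, limma adjusted p = 0.00406). Dusp2, another nuclear phosphatase, rose 21.8-fold and, unlike Dusp5, kept climbing, from 6.19 to 7.60 and from 7.50 to 9.46 between 30 and 90 min. Errfi1, the EGF receptor inhibitor Mig6, rose 12.0-fold, from 10.67 to 13.94 in WT and from 9.18 to 13.07 in Med23KO. Dusp4 rose at least 6.45-fold, Dusp6, the cytoplasmic ERK phosphatase, 3.96-fold, Spry2 4.03-fold and Dusp10 2.89-fold. Dusp1, an immediate-early phosphatase, had peaked at 12.82 and 12.74 at 30 min, and at 90 min it stood 1.53 below its 0 min level in WT and 1.47 above it in Med23KO, so its change of -0.03 was not called.

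Of 11 genes of mRNA stability and anti-proliferation tested, 4 rose (36.4%, against 4.56% of all genes), 7 were not called and 0 fell. The median change was 0.32 (0 to 2 rose with 1 array left out). Zfp36, or tristetraprolin, which destabilises cytokine mRNAs through AU-rich elements, had peaked at 11.49 and 11.20 at 30 min and was 2.78-fold up at 90 min. Zfp36l2 and the endonuclease gene Zc3h12a rose 3.20-fold and 3.29-fold, and the anti-proliferative gene Btg2 rose 6.21-fold. Noct, which encodes nocturnin, a phosphatase of NADPH related to deadenylases, rose 35.4-fold, from 6.56 to 11.23 in WT and from 5.89 to 11.51 in Med23KO. Its error was small for its size (SE 0.26, limma adjusted p = 0.00196).

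Lif, Il6 and Ccl2 were among the 15 largest rises. Of 16 cytokine and chemokine genes tested, 9 rose (56.2%, against 4.56% of all genes), 7 were not called and 0 fell. The median change was 2.09 (0 to 6 rose with 1 array left out). Lif, a ligand of the gp130 receptor, went from 5.99 to 11.89 in WT and from 4.01 to 9.25 in Med23KO. Its rise was 47.5-fold (SE 0.58, limma adjusted p = 0.00611) on the representative of 2 probe sets, which gave changes of 3.64 and 5.57. The WT array at 30 min (10.08) was already far above that of Med23KO (5.44). Il6, whose product acts through the same receptor, was below the array median at 0 min in both lines (3.54 and 3.15) and reached 8.99 and 7.64. That is a rise of at least 21.0-fold (limma adjusted p = 0.00221). Clcf1, a further gp130 ligand, rose 4.87-fold.

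Ccl2, the monocyte attractant MCP-1, stood at 11.38 and 14.13 at 0 and 90 min in WT and at 6.59 and 13.08 in Med23KO. The 90 min levels lay close together and the 0 min levels did not, and the average rise was 24.6-fold (limma adjusted p = 0.0189). Its relative Ccl7 rose 10.7-fold. Csf1, the growth factor of macrophages, rose 5.90-fold, Ccl20 at least 4.26-fold and Cx3cl1 3.34-fold. Cxcl1 and Cxcl10 were not called, with changes of 0.99 and 4.0 in WT and of 2.78 and 0.68 in Med23KO. Cxcl12, a chemokine made by resting fibroblasts, was at 10.71 and 12.30 at 90 min, with an uncalled change of -0.31. Macrophages also make these factors. Of 10 macrophage markers, 4 lay above the median in WT and 3 in Med23KO, and their summed linear level was 742 and 398 at 0 and 90 min in WT and 184 and 180 in Med23KO. In WT most of it came from Cd14, at 9.28 and 8.13. In Med23KO, Cd14 stood at 6.25 and 6.21, and most of the sum came from the other markers. Ptprc (2.89 to 3.2) and Adgre1 (3.1 to 3.71) lay below the medians, and Csf1r (4.26 to 4.6) lay above them. Their part in the result was not tested.

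NF-kB drives many of these cytokine genes. Of 15 genes of its subunits, inhibitors and feedback targets tested, 8 rose (53.3%, against 4.56% of all genes), 7 were not called and 0 fell. The median change was 1.08 (0 to 6 rose with 1 array left out). Nfkbia, the inhibitor that NF-kB itself induces, stood at 10.78, 12.39 and 11.65 at 0, 30 and 90 min in WT and at 9.69, 12.13 and 11.11 in Med23KO. It had dropped from its 30 min level in both lines and was 2.21-fold above 0 min (limma adjusted p = 0.0261). Tnfaip3, the ubiquitin-editing inhibitor A20, rose 7.26-fold, and the inhibitor gene Nfkbie 4.84-fold. The subunit genes Rel, Relb, Nfkb2 and Rela rose 5.90-fold, 4.21-fold, 2.84-fold and 1.74-fold, and the 90 min arrays were above the 30 min arrays for Rel, Relb and Nfkb2 in both lines.

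Windows of the same length and build are shown for Il6 (chr5:30012954-30013113, plus strand) and Nfkbia (chr12:55492648-55492807, minus strand), a large and a small rise with a match to the NF-kB motif, in capitals, near the start.
Il6: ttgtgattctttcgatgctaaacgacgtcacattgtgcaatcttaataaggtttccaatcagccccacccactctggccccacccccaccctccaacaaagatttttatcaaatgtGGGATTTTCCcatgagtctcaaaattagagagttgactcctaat
Nfkbia: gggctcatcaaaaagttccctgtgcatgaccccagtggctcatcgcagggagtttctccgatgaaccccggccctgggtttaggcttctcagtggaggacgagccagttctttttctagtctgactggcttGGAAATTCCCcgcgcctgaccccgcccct
The match lies at -44 in Il6 and at -29, on the other strand, in Nfkbia. The motif was found in 11.7% of the promoters of genes that rose, 7.43% of those that fell and 8.54% of all tested, so most risen genes have no match in this window. The AP-1 element TGANTCA, found in 5.14%, 2.51% and 4.27% of the same promoters, occurs at -249 in Il6, outside the bases shown.

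A list of 13 genes of the gp130 and STAT3 pathway held receptor genes, Stat3 itself and feedback inhibitors. Of these 13, 5 rose and 1 fell, with a median change of 0.70 (0 to 3 rose with 1 array left out). The shares were 38.5% and 7.69%, against 4.56% and 8.95% of all genes. Cish and Socs2, SOCS-family inhibitors of cytokine receptors, rose 4.66-fold and 2.20-fold, and Stat3 rose 1.62-fold. Socs3, the inhibitor most closely tied to gp130, was not called, at 9.69 and 8.84 at 90 min against 8.60 and 9.76 at 0 min. Socs1 and Pim1 were not called either, while Socs5 and Socs6 rose 2.14-fold and 2.02-fold. Bcl6, a repressor that FoxO factors also induce, fell by 1.83 on the log2 scale (limma adjusted p = 0.0104).

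Growth factor genes gave a few large rises among many small values. Of 18 members tested, 5 rose and 1 fell, with a median change of 0.31 (0 to 4 rose with 1 array left out). Risen and fallen members were 27.8% and 5.56%, against 4.56% and 8.95% of all genes. Hbegf, a ligand of the EGF receptor, went from 8.76 to 12.49 in WT and from 3.71 to 10.80 in Med23KO. Its rise was at least 39.7-fold (SE 0.78, limma adjusted p = 0.0123), with changes of 3.73 in WT and 7.09 in Med23KO. Inhba, the activin A subunit, rose 7.36-fold with changes of 3.05 and 2.71, most of it after 30 min, when it was at 7.57 and 7.97. Vegfa rose 6.32-fold and Fgf7 2.29-fold. Pdgfb rose at least 7.04-fold, with changes of 4.35 in WT and 1.54 in Med23KO. Bmp4 fell by 1.49 on the log2 scale (limma adjusted p = 0.0220). Flt1, the VEGF receptor counted here among endothelial markers, rose 9.51-fold, from 7.69 to 10.30 and from 4.65 to 8.54, while Pecam1 and Cdh5 stayed at or below 3.38.

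Of 21 genes of the delayed wave tested, many of the matrix and its proteases, 12 rose, 9 were not called and 0 fell. Risen members were 57.1%, against 4.56% of all genes, and the median change was 0.89 (0 to 9 rose with 1 array left out). Plaur, the urokinase receptor, went from 5.55 through 6.77 to 8.99 in WT and from 4.94 through 6.49 to 8.78 in Med23KO. Both lines kept the same course, a rise of 12.5-fold (SE 0.17, limma adjusted p = 0.00196). Ptgs2, the prostaglandin synthase COX-2, rose 15.3-fold, to 12.91 and 12.17. Has2, which makes hyaluronan, stood at 4.01 and 3.99 at 0 and 30 min in WT and reached 6.62, and in Med23KO went from 7.19 to 11.23. The lines overlapped, yet each rose, by 2.61 and 4.04, an average of 10.0-fold (limma adjusted p = 0.00583). Hmox1 (heme oxygenase), Timp1 (a metalloproteinase inhibitor) and Slc2a1 (the glucose transporter GLUT1) rose 7.59-fold, 4.11-fold and 3.03-fold. The cyclin gene Ccnd1, a later target, was not called, with a change of 0.58.

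The promoter of Plaur (chr7:24462323-24462482, plus strand, same build) is shown for this group, with a TGANTCA match at -69 in capitals.
Plaur: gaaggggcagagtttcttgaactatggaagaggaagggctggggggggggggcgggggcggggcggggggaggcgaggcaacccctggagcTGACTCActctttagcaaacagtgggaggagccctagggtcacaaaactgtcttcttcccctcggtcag

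A list of TGF-beta and BMP genes held inhibitors, receptors and the Id targets. Of 17 members tested, 6 rose and 1 fell, with a median change of 0.57 (0 to 5 rose with 1 array left out). These are 35.3% and 5.88%, against 4.56% and 8.95% of all genes. Fst, or follistatin, which traps activin, went from 7.84 to 10.39 and from 7.05 to 9.76, a rise of 6.19-fold (SE 0.15, limma adjusted p = 0.00196). Inhba and its inhibitor Fst thus rose side by side. Skil, which encodes the SMAD corepressor SnoN, rose 6.87-fold, and Smad7, the inhibitor of TGF-beta receptors, 3.96-fold. Smad6, the related inhibitor of BMP receptors, fell by 1.47 on the log2 scale, from 7.62 to 5.91 and from 7.31 to 6.08 (limma adjusted p = 0.00977). Id1, a BMP target, rose 3.57-fold, while Id2 and Id3 were not called.

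Of 25 genes of ribosome biogenesis, 6 rose and 0 fell, with a median change of 0.40 (0 to 5 rose with 1 array left out): the helicase gene Ddx21 2.92-fold, the nucleostemin gene Gnl3 2.90-fold, Nolc1 2.58-fold, Wdr43 2.30-fold, the snoRNP gene Nop56 2.01-fold, and Heatr1 less than 2-fold. Risen biogenesis genes were 24.0% of the group, against 4.56% of all genes. For the 11 genes of cytosolic ribosomal proteins, 0 passed in limma, and their changes lay between -0.36 (Rps19) and -0.09 (Rpl19). Of 19 genes of cholesterol and fatty acid synthesis, 5 rose and 0 fell, with a median change of 0.36 (0 to 4 rose with 1 array left out). The risen share was 26.3%, against 4.56% of all genes. Idi1 rose 3.61-fold, Cyp51 3.20-fold, Hmgcs1 2.81-fold, the sterol sensor Insig1 2.65-fold and Sqle 2.07-fold. The other sterol genes of the list were not called, among them Fdft1, Sc5d and Srebf2, and nor were the fatty acid genes Fasn and Scd1, with changes of 0.47 and -0.28.

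Stress genes were tested in 3 lists, against shares of 4.56% of all genes that rose and 8.95% that fell. Of 17 targets of ATF4, the factor of the amino acid response, 3 rose (17.6%) and 1 fell, with a median change of 0.24 (0 to 4 rose with 1 array left out). Cebpb, which also answers to growth factors, rose 4.07-fold, the amino acid transporter gene Slc7a5 2.33-fold and Mthfd2 2.53-fold, and Nupr1 fell by 1.5 on the log2 scale (limma adjusted p = 0.0124). Of 10 heat shock genes, 3 rose (30.0%), each less than 2-fold (Hsp90aa1, Hspb1, Bag3), with a median change of 0.53 (0 to 1 rose with 1 array left out). Of 14 ER chaperone genes, 0 rose and Dnajb9 fell by 0.85 on the log2 scale, with a median change of 0.045.

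Txnip, Ccng2, Pik3ip1 and Sesn1, from a list of starvation genes, were among the 15 largest falls. Txnip, which blocks glucose uptake and binds thioredoxin, stood at 9.90, 7.15 and 6.0 at 0, 30 and 90 min in WT and at 10.98, 9.22 and 5.40 in Med23KO. Both lines were falling by 30 min, and the change of -4.74 is a 26.7-fold fall (SE 0.56, limma adjusted p = 0.00807, and 0.0315 to 0.126 with 1 array left out). Ccng2, an atypical cyclin of resting cells, was at 10.05 and 8.94 at 0 min, hardly moved by 30 min (9.67 and 8.93), and reached 6.67 and 5.42. This 10.9-fold fall was alike in both lines, with changes of -3.38 and -3.52 (SE 0.18, limma adjusted p = 0.00196). Pik3ip1, an inhibitor of PI3 kinase, fell 9.68-fold, from 8.58 to 5.15 and from 7.81 to 4.69 (limma adjusted p = 0.00196). Sesn1, a sestrin that restrains mTORC1, fell 5.12-fold (limma adjusted p = 0.00583).

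**Figure D3:**
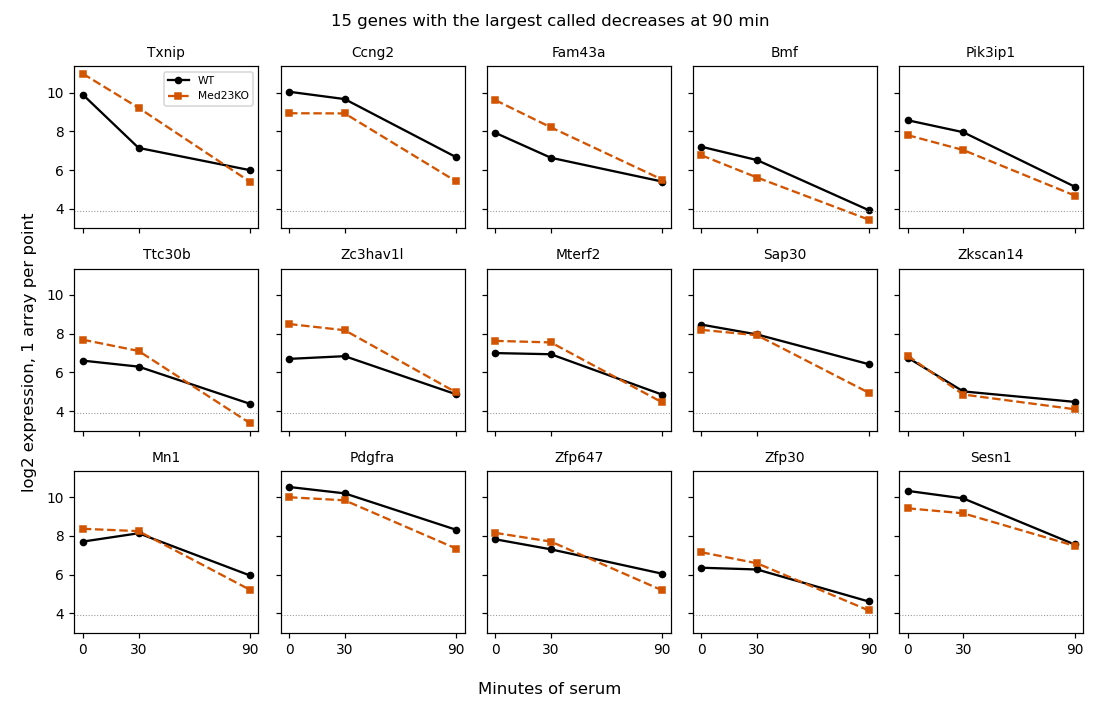
Level at 0, 30 and 90 min of serum (log2 expression, 1 array per point) of the 15 genes with the largest called falls, WT as black circles and Med23KO as orange squares; the dotted line is the median of all probe sets on the MEF arrays. Most of the fall lies between 30 and 90 min for Ccng2, Mterf2, Zc3hav1l and Pdgfra, while Txnip, Fam43a and Zkscan14 were already lower at 30 min in both lines.

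Starvation genes as a group, many of them known FoxO targets, fell or were not called. Of 29 members tested, 11 fell, against 8.95% of all genes tested, and 0 rose, with a median change of -0.77 against -0.11 over all genes (0 to 9 fell with 1 array left out). Beside Txnip, Ccng2, Pik3ip1, Sesn1 and Bcl6, the cell cycle inhibitor Cdkn1b fell 2.49-fold, the insulin receptor gene Insr 2.17-fold, Sesn3 2.30-fold and the ubiquitin ligase gene Fbxo32 3.05-fold. Ypel3 and the pocket protein gene Rbl2 fell by less than 2-fold. Gadd45a and Bcl2l11 were not called: Gadd45a went from 9.30 to 6.02 in WT and from 4.95 to 4.83 in Med23KO, and Bcl2l11 changed by -0.45 and -1.85. The FoxO gene Foxo3 and the insulin receptor substrate gene Irs2 were not called, with changes of 0.10 and -0.20. Bmf, a BH3-only relative of Bcl2l11 that was no member of the list, fell at least 8.40-fold, from 7.21 to 3.94 and from 6.77 to 3.45 (limma adjusted p = 0.00196), and its 3 probe sets gave changes from -3.30 to 0.12.

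The window of Txnip (chr3:96557797-96557956, plus strand, same build) is shown as that of the deepest fall, with a match to the FoxO element GTAAACA at -121 in capitals.
Txnip: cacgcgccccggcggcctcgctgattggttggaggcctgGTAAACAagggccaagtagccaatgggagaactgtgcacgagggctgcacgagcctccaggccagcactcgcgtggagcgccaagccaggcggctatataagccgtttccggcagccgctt
GTAAACA was found on either strand in 3.09% of the promoters of genes that fell, 0.467% of those that rose and 2.09% of all tested. Of all 27025 promoters, 3.09% held it. Of the 5 motifs searched, the fifth, the CREB element TGACGTCA, was found in 4.67% of risen, 2.74% of fallen and 2.74% of all tested promoters.

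Both PDGF receptor genes fell. Pdgfra, the PDGF alpha receptor and a fibroblast marker, went from 10.53 to 8.32 in WT and from 10.00 to 7.35 in Med23KO. Both 90 min levels lay below both 0 min levels, a 5.39-fold fall (SE 0.19, limma adjusted p = 0.00495), although its 3 probe sets ranged from -2.43 to -0.15. Pdgfrb fell 2.04-fold, by 1.03 in each line. These were the 2 of 10 fibroblast markers tested that fell (20.0%, against 8.95% of all genes). The collagen gene Col1a1 and the intermediate filament gene Vim had changes of -0.16 and 0.18 that were not called.

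Most of the 15 largest falls were in genes of no list. Mterf2, a mitochondrial transcription factor, fell 6.34-fold, Sap30, a subunit of the Sin3 deacetylase complex, 6.23-fold, and the coactivator gene Mn1 5.46-fold. Fam43a fell 9.95-fold, with changes of -2.52 in WT and -4.11 in Med23KO, and Zc3hav1l 6.41-fold. Ttc30b, which encodes a protein of ciliary transport, fell at least 8.06-fold, and is reported as uncertain because its near-identical copy Ttc30a1 may share its probes.

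Zinc finger genes were common among the falls, Zkscan14 (5.78-fold), Zfp647 (5.19-fold) and Zfp30 (5.17-fold) being 3 of the 15 largest. The 3 probe sets of Zkscan14 gave changes from -2.53 to -0.96 and the 2 of Zfp30 from -2.37 to -0.53. Many such genes encode repressors of retroelements. Taking all genes named Zfp and a number, a rule set after these values were seen, 80 of 259 tested fell (30.9%, against 8.95% of all genes) and 9 rose. The 9 include Zfp36, the mRNA decay gene above. The median change was -0.47 (-0.36 in WT and -0.59 in Med23KO), and 36 of the 259 fell by at least 2-fold in each line. Of these genes 68.0% were lower at 90 min in both lines, against 45.0% of all genes. Between 0 and 71 were called lower with 1 array left out. Many members are similar in sequence, and the array cannot always tell them apart.

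Genes of DNA replication and mitosis were more often lower than higher. Of 26 members tested, 10 fell and 3 rose, with a median change of -0.76 (0 to 3 fell with 1 array left out). Fallen and risen members were 38.5% and 11.5%, against 8.95% and 4.56% of all genes. Aurka, Cdk1 and Ccna2, drivers of mitosis, fell 2.69-fold, 2.46-fold and 2.30-fold. The change was more negative in WT than in Med23KO for all 3, -2.12 and -0.73 for Aurka, a difference that was not tested. Mki67 was not called at -0.97. Tyms, Cdt1 and Pcna, needed for DNA synthesis, rose at least 1.80-fold, 2.16-fold and 1.78-fold. Among regulators of the cycle, Cdkn1a (p21) rose 3.13-fold and Ccnd2 2.47-fold, and the inhibitor Cdkn2d (p19) fell 3.53-fold, from 6.62 to 4.76 and from 6.38 to 4.60.

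Of 17 genes of the p53 pathway, 5 rose and 1 fell, with a median change of 0.27 (0 to 5 rose with 1 array left out). The shares were 29.4% and 5.88%, against 4.56% and 8.95% of all genes. Beside Cdkn1a the risen genes were the kinase genes Plk3 (6.96-fold) and Plk2 (4.55-fold), Gadd45g (5.80-fold) and the nuclease gene Aen (2.83-fold). Plk2, Plk3 and Gadd45g are also known as serum-response genes. Mdm2, the inhibitor of p53, was not called, with changes of 1.37 in WT and 0.41 in Med23KO.

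Serum also resets the circadian clock of fibroblasts. Of 17 clock genes tested, 3 rose, 3 fell and 11 were not called, with a median change of 0.24 (with 1 array left out, 0 to 1 rose and 0 to 3 fell). Each direction held 17.6% of the group, against 4.56% higher and 8.95% lower among all genes. The repressor genes Nfil3 and Bhlhe40 rose 6.13-fold and 5.17-fold. Per1, the period gene known to answer serum first, stood at 5.85, 7.87 and 7.20 in WT and at 5.89, 7.79 and 6.57 in Med23KO, and was 2.02-fold up at 90 min (limma adjusted p = 0.0283). Dbp and Tef, PAR-domain activators that compete with Nfil3 for the same sites, fell 3.62-fold and 2.16-fold, and Per3 fell 2.17-fold. Per2, at levels near the array medians, and Cry1, Clock and Hlf were among those not called.

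Of 11 Notch and Wnt genes tested, with a median change of -0.065, 0 rose in limma and 3 fell (0 to 1 each way with 1 array left out), the ligand genes Jag1 (2.16-fold) and Wnt5a (2.05-fold) and the factor Lef1 (2.00-fold). Hes1, a Notch target, was not called, with changes of 0.59 in WT and 3.29 in Med23KO (limma adjusted p = 0.181, and 0.0468 to 0.763 with 1 array left out). Of 16 interferon-stimulated genes tested, with a median change of -0.205, 0 rose in limma and 3 fell (0 to 2 with 1 array left out): Irf9, a subunit of the interferon-activated factor, 2.31-fold, Ifit2 2.15-fold and Rtp4 at least 1.83-fold. Of 30 Mediator genes, 0 passed in limma in either direction (0 to 2 fell with 1 array left out), with a median change of -0.19 and changes from -0.76 (Med19) to 0.59 (Med13). That of Med23 was -0.24 in WT. The falls were 27.3% of the Notch and Wnt genes and 18.8% of the interferon genes, against 8.95% of all genes.

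**Figure D4:**
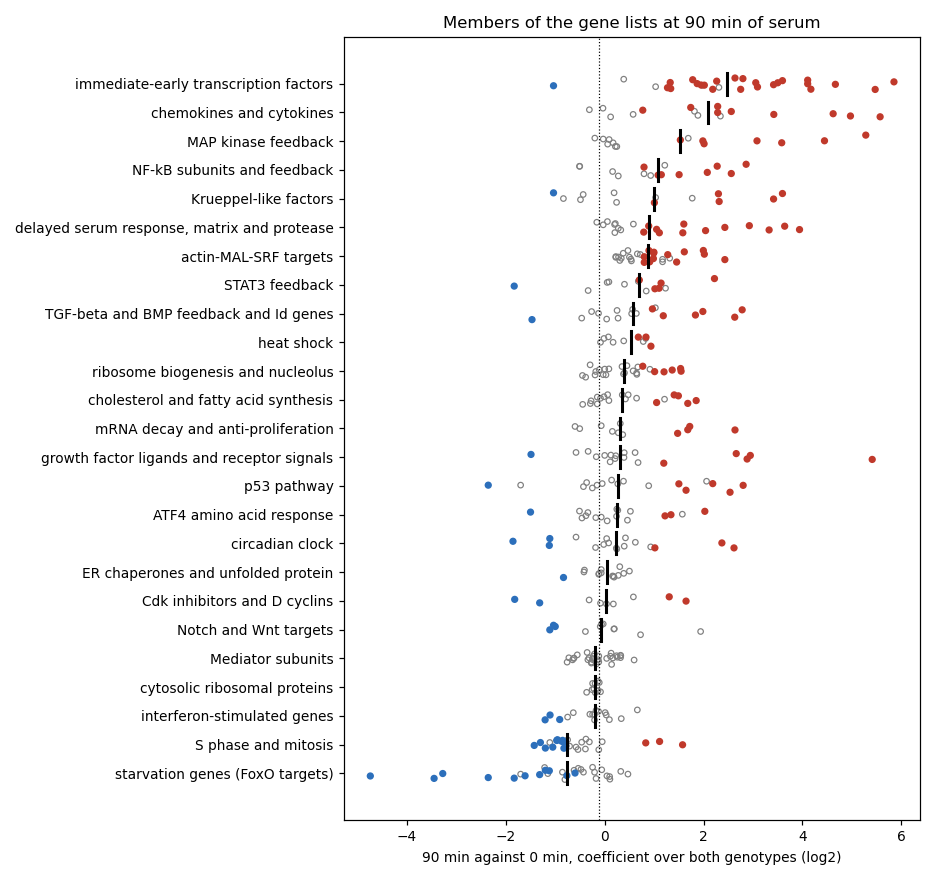
Change at 90 min (log2, average of both genotypes) of each tested member of 25 gene groups, 1 point per gene, ordered by the median of the group (black bar). Red and blue points rose and fell by limma, open points were not called, and the dotted line is the median of all genes, -0.11; immediate-early factors are at the top, with a median of 2.47, and starvation genes at the bottom, with -0.77.

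Differences between WT and Med23KO in the size of the serum change could not be tested with 1 array per condition, and are given as values. For 764 of the 11933 genes (6.4%) the change differed by at least 1 on the log2 scale between the lines, more positive in Med23KO for 396 and in WT for 368. The largest differences toward Med23KO were those of Egr3 (4.63), Jun (3.78), Ccl2 (3.74), Pmaip1 (3.62) and Plcxd2 (3.52). For Egr3, Jun and Ccl2 the 0 min level was lower in Med23KO by more than the 90 min level differed. Pmaip1, the BH3-only gene Noxa, instead started alike, at 4.08 and 4.64, and ended at 4.33 in WT and 8.51 in Med23KO. The largest toward WT were those of Mfsd13a (-3.78), Ptx3 (-3.69), Cxcl10 (-3.32), Zfp799 (-3.09) and Pde4b (-2.84). Ptx3, a secreted pattern-recognition protein, went from 5.15 to 9.39 in WT and stood at 12.02 and 12.57 in Med23KO. Cxcl10 went from 4.57 to 8.57 in WT and from 3.61 to 4.29 in Med23KO. Levels below the array median were used as read for these differences. They were those of Egr3 (3.15) and Cxcl10 (3.61) in Med23KO at 0 min and of Zfp799 (3.38) in WT at 90 min.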

How the data were processed

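The deposited values were log2 expression values of Affymetrix probe sets, 1 column per array, made by the authors; the log2 scale was read from the values, which ran from 2.20 to 14.7. RMA and MAS5 are named per the submitters' processing notes, and their roles are not given in the sources used here. Of 45101 probe sets, 64 were controls, 34945 had 1 gene symbol in the platform annotation (34741 updated through Entrez identifiers to RefSeq), 932 had several and 9160 were unnamed. The probe set with the highest mean stood for each of 18193 genes, and 11933 genes with a level above 3.90, the median of the MEF arrays, entered the fit.

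limma 3.58.1 in R 4.3.3 (lmFit, eBayes) fitted genotype and serum time on the 6 MEF arrays, with 2 residual and 4.18 prior degrees of freedom, two-sided p-values, Benjamini-Hochberg adjustment and a threshold of 0.05. The residual holds noise and any interaction of genotype and time. The code was tested on simulated data. The number of arrays limits the precision. Named genes were the 15 largest called changes in each direction of 1 sign in both genotypes with the higher arrays above their median, clone and predicted genes skipped, the 5 largest genotype differences in each direction, SRF and its cofactors, Med23 and members of 35 gene lists. Members and lists were chosen with earlier results of these data known, so list counts are descriptions. Of 594 list entries, 493 were tested, 68 lay below the filter and 33 were not analysed here. Among marker lists not described in the report, 1 of 6 neural markers fell, and 0 of 2 adipocyte, 4 macrophage, 2 epithelial, 3 skeletal muscle and 2 blood cell markers passed. Alternatives were another normalization, centring, filter, probe set rule, prior trend and set of arrays. Promoters are 250 bases before to 50 after the first start listed for a gene in RefSeq, and 9600 of 11933 genes had one. Motifs were searched only in the 250 bases before the start, on both strands, as exact letters.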

Additional observations from a re-analysis of the deposited data

Results flagged for a closer look

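For 3 of the 10 genes with the largest differences between the lines, the 90 min level lay above the 0 min level in one line and below it in the other. In each the difference was not tested. Plcxd2, a phospholipase-like gene, went from 5.01 to 4.90 in WT and from 4.46 to 7.87 in Med23KO, a difference of 3.52 toward Med23KO. Mfsd13a, a transporter-like gene, went from 5.11 to 8.76 in WT and from 4.15 to 4.02 in Med23KO, a difference of -3.78. Pde4b, a cyclic AMP phosphodiesterase gene, went from 6.48 to 7.87 in WT and from 6.02 to 4.57 in Med23KO, a difference of -2.84.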

How the results depend on the processing

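The counts of 544 risen and 1068 fallen genes held within 1.5 times under quantile normalization, centring, both other filters, the mean of all probe sets and a trend in the prior variance, at 518 to 651 and 902 to 1207. With levels below the array median raised to it, a setting chosen after the data were seen, they were 286 and 533. They were 7 and 4 with only the 0 and 90 min arrays, which leave 1 residual degree of freedom, and 0 and 0 by limma without the genotype term (1190 genes at an unadjusted p below 0.05), whose spread then holds the difference between the lines. With 1 array left out they ranged from 0 to 353 and from 0 to 524: 25 and 4 without WT 0 min, 7 and 4 without either 30 min array, 353 and 499 without WT 90 min, 0 and 0 without Med23KO 0 min, and 261 and 524 without Med23KO 90 min. These fits have 1 residual degree of freedom, and those without either 30 min array repeat the fit of the 0 and 90 min arrays. The count of 764 genes that differed between the lines was 759 after quantile normalization and 703 with low levels raised. Among the named genes followed through these settings, the changes that turned sign were those of genes not called. With 1 array left out, Ccn2 ranged from -0.27 to 2.61, Dusp1 from -1.66 to 1.60, Socs3 from -1.03 to 1.20, Id2 from -0.40 to 1.68, Irs2 from -0.71 to 0.30 and Sox2 from -0.015 to 1.06. With the mean of probe sets, Actb was -0.043, Cxcl12 0.047 and Col1a1 0.29. The cause was not tested. The fit of the 0 and 90 min arrays with the genotype term compares each line with itself, and gave the 7 and 4 above. By replicate number no paired analysis was possible because the labels number no replicates.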

Other observations

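Outside the gene groups, several genes of uptake and metabolism rose, and they were chosen here after their values were seen. Slc20a1, a phosphate transporter, rose by 3.64 (SE 0.29), with changes of 3.48 in WT and 3.80 in Med23KO from 0 min levels as far apart as 9.85 and 4.99. The arginine and lysine transporter Slc7a1 rose by 2.01, the hexokinase gene Hk2 by 2.59 and the choline kinase gene Chka by 2.52. All 4 were higher at 90 than at 30 min in both lines. The coagulation starter F3, or tissue factor, rose by 3.69, from 8.05 to 11.07 and from 7.99 to 12.34. The tubulin gene Tubb6 rose by 3.31, the prostaglandin receptor gene Ptger4 by 3.55 and Tnfrsf12a, the TWEAK receptor, by 3.33, the latter with changes of 1.66 in WT and 5.01 in Med23KO.

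Genes outside the groups that fell are named by the same after-the-fact choice. Atg14 and Pik3c3 encode parts of the lipid kinase complex that starts autophagosomes. Atg14 went from 6.95 to 4.73 in WT and from 6.38 to 4.13 in Med23KO, and Pik3c3 from 6.38 to 4.79 and from 6.22 to 4.13. Both fell in each line, by averages of 2.23 and 1.84 on the log2 scale. Lipe, the hormone-sensitive lipase, fell by 2.06, the glycogen-targeting phosphatase gene Ppp1r3c by 2.15, and Ogt, which attaches N-acetylglucosamine to proteins, by 2.19. The cell cycle repressor gene Hbp1 fell by 1.69, Trp53inp1 by 1.95 and the mesenchymal repressor gene Snai2 by 1.91, the last from 6.66 to 4.42 in WT and from 10.31 to 8.74 in Med23KO.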
